A study of Arabidopsis thaliana with 4 samples.

Results

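Indole glucosinolates are sulfur-rich defence compounds that Arabidopsis thaliana makes from tryptophan, and the 10 genes described here are 6 enzymes of their core synthesis, 1 enzyme that decorates the indole ring and 3 MYB transcription factors that switch the pathway on. The genes were chosen by identifier as known members of the pathway, and all 10 were found among the 32538 genes of the deposited table. Messenger RNA was sequenced from hypocotyls, the seedling stems below the cotyledons, excised from 5-day-old seedlings that had germinated for 24 hours and then grown in the dark on MS medium at 22 °C, and was prepared with a stranded mRNA kit. The shr-2 group, a mutant of the transcription factor SHORT-ROOT (SHR) in the Col-0 ecotype, gave 2 libraries, and wild-type Col-0 gave 2 libraries. SHR patterns the ground tissue and is needed for the endodermis, the cell layer around the vascular tissue. The comparison asks how the hypocotyl transcriptome of the shr mutant differs from that of the wild type in darkness. The libraries are described as biological duplicates, and how many seedlings were pooled for each is not stated.

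The pathway starts when the paired cytochromes P450 CYP79B2 and CYP79B3 convert tryptophan to indole-3-acetaldoxime. This intermediate is a branch point, since it can also feed camalexin, a phytoalexin, and auxin. CYP83B1 commits it to glucosinolates, the C-S lyase SUR1 and the glucosyltransferase UGT74B1 build the core, and the sulfotransferase SOT16 completes it. Mutants of CYP83B1 or SUR1 accumulate auxin and form extra roots on the hypocotyl, which is why they are known as superroot plants. MYB34, MYB51 and MYB122 are R2R3-type MYB activators of these genes, and CYP81F2 hydroxylates the finished compound at position 4 of the indole ring.

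The bases before the annotated starts of the CYP79B pair and of the 3 MYB genes are shown. In the mutant CYP79B2 was called higher, CYP79B3 was not called and the 3 MYB genes were all lower. Whether the CYP79B genes differ in their change was not tested, nor was a link between these sequences and the levels. Each sequence is the 250 bases upstream of the gene in RefSeq's TAIR10.1 assembly, read 5′ to 3′ on the coding strand, which is the plus strand for all 5 genes. The windows lie at chr4:18524792-18525041 for CYP79B2, chr2:9488163-9488412 for CYP79B3, chr5:24494041-24494290 for MYB34, chr1:6389149-6389398 for MYB51 and chr1:27855328-27855577 for MYB122. Capitals mark the ungapped stretch in which the CYP79B2 and CYP79B3 windows matched best, by a score that weighs a mismatch more than a match. Mismatched bases inside it are also in capitals.
CYP79B2: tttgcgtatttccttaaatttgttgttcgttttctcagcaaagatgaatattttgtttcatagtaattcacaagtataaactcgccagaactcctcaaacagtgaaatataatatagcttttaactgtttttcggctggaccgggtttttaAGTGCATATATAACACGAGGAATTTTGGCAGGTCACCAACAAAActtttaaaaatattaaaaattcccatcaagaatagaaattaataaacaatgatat
CYP79B3: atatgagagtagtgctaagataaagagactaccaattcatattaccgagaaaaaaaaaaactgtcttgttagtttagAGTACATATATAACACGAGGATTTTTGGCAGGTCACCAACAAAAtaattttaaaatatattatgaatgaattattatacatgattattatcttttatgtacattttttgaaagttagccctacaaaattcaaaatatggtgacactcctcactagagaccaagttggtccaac
MYB34: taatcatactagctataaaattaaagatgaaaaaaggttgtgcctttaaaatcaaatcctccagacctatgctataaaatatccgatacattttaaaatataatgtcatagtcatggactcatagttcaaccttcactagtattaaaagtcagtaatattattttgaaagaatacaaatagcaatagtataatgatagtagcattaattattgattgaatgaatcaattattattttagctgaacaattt
MYB51: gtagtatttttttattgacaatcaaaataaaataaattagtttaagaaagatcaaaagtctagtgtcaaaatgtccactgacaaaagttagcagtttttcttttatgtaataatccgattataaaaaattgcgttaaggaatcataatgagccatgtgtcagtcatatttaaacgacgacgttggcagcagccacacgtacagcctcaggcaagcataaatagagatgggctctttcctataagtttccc
MYB122: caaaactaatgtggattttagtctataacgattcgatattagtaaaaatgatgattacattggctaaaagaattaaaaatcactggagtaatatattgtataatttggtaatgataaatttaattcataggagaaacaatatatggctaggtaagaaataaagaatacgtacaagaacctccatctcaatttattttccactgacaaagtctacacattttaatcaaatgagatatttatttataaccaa

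The shared stretch of the CYP79B pair is 44 bases long, with 42 identical bases, and lies 99 to 56 bases before the start of CYP79B2 but 173 to 130 bases before that of CYP79B3. Its longest identical run of 22 bases occurs in the windows of these 2 genes and of no other among 27443 protein-coding genes. The run was picked as the match between these 2 windows, and no other run or gene pair was searched. Its absence elsewhere is therefore no test of a shared function. The transcripts of the pair were 81.3% identical over 1635 aligned bases. Of 4 short motifs searched on both strands, the G-box CACGTG, which MYC factors bind, was found before SUR1 only, at 50 to 45 bases before its start. It was present in 6.5% of all such windows. The AC element ACCNACC, a site of many plant MYB factors, was found before UGT74B1 and SOT16 and in 6.1% of all windows, and the W-box TTGACC of WRKY factors before CYP81F2 and in 12.2%. The sulfur-response core GAGAC was found before CYP79B3, SUR1 and CYP81F2 and in 25.8% of all windows. No match was found before the 3 MYB genes, CYP83B1 or CYP79B2.

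None of the 10 genes overlaps another gene model, and none has a near-identical copy, taken as 90% identity or more across 50% or more of the transcript. MYB122 (AT1G74080, chromosome 1, 27855578 to 27857598) and SOT16 (AT1G74100, chromosome 1, 27864345 to 27865694) lie 6746 bases apart. SOT18, a sulfotransferase of the methionine branch, ends 151 bases from SOT16. CYP79B2 (AT4G39950, chromosome 4, 18525042 to 18527602) lies 3436 bases from APK2, which makes the activated sulfate that SOT16 uses. CYP79B3 (AT2G22330, chromosome 2, 9488413 to 9491404) and CYP83B1 (AT4G31500, chromosome 4, 15273410 to 15275404) stand apart from other members, as do SUR1 (AT2G20610, chromosome 2, 8877887 to 8880440) and UGT74B1 (AT1G24100, chromosome 1, 8525334 to 8527087). The remaining regulators are MYB34 (AT5G60890, chromosome 5, 24494291 to 24496371) and MYB51 (AT1G18570, chromosome 1, 6389399 to 6391386), and CYP81F2 (AT5G57220) is on chromosome 5 at 23187840 to 23189902. The values below are FPKM, fragments per kilobase of transcript scaled to the mapped fragments of the library, given per gene. Loci are 1-based TAIR10 positions.

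The labels were checked before the members were read. SHR stood at 2.57 and 3.45 FPKM in the shr-2 libraries, against 28.4 and 28.9 FPKM in the Col-0 libraries (limma, log2 fold change -2.90, adjusted p = 0.00049). SCR, a partner and target of SHR, fell as well (log2 fold change -1.51, limma, adjusted p = 0.00248). The titles say shr-2, while the genotype recorded for those libraries is an SCL28 overexpressor, and SCL28 read 5.81 and 5.57 FPKM in shr-2 and 5.00 and 5.24 FPKM in Col-0 (limma, adjusted p = 0.412). The recorded tissue is root tip, yet all 10 markers of root tip, cap and hair averaged under 1 FPKM, with a highest value of 0.671 FPKM. All 9 endodermis markers, SCR among them, fell, with summed levels of 20.7 and 22.7 FPKM in shr-2 against 573 and 694 FPKM in Col-0, and none was listed at 0 in any library, though 7 of the 9 reached the tested mean of 1 FPKM only through Col-0. In such bulk samples fewer cells of a type and less RNA per cell cannot be told apart. Of 5 green-tissue markers 2 rose and 0 fell, with sums of 7409 and 9900 FPKM in shr-2 against 1904 and 2134 FPKM in Col-0. Most of each sum came from the 2 that rose, both genes of the Rubisco small subunit, and the other 3 were not called. Among phloem markers 1 of 5 rose and 1 fell, among xylem markers 2 of 5 rose, and 0 of 3 epidermal markers changed. Replicate libraries correlated across genes at r = 0.981 in shr-2 and 0.984 in Col-0.

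Of the 10 members, 1 was higher in shr-2, 6 were lower and 3 did not pass the test (limma on log2 of FPKM + 1, Benjamini-Hochberg adjusted p under 0.05 over all genes). Over all 19920 genes tested, those with a mean of at least 1 FPKM, 27.6% were called, 13.9% higher and 13.7% lower in the mutant. The median log2 fold change was -0.41 over the members and 0.01 over all genes tested, and the median absolute value was 0.43 and 0.26. All 10 members passed the filter on low values, MYB122 only through its Col-0 level. The genotypes did not overlap for 8 members, and they did not overlap for 66.2% of all genes tested, so separation of the libraries is common in these data.

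**Figure D1:**
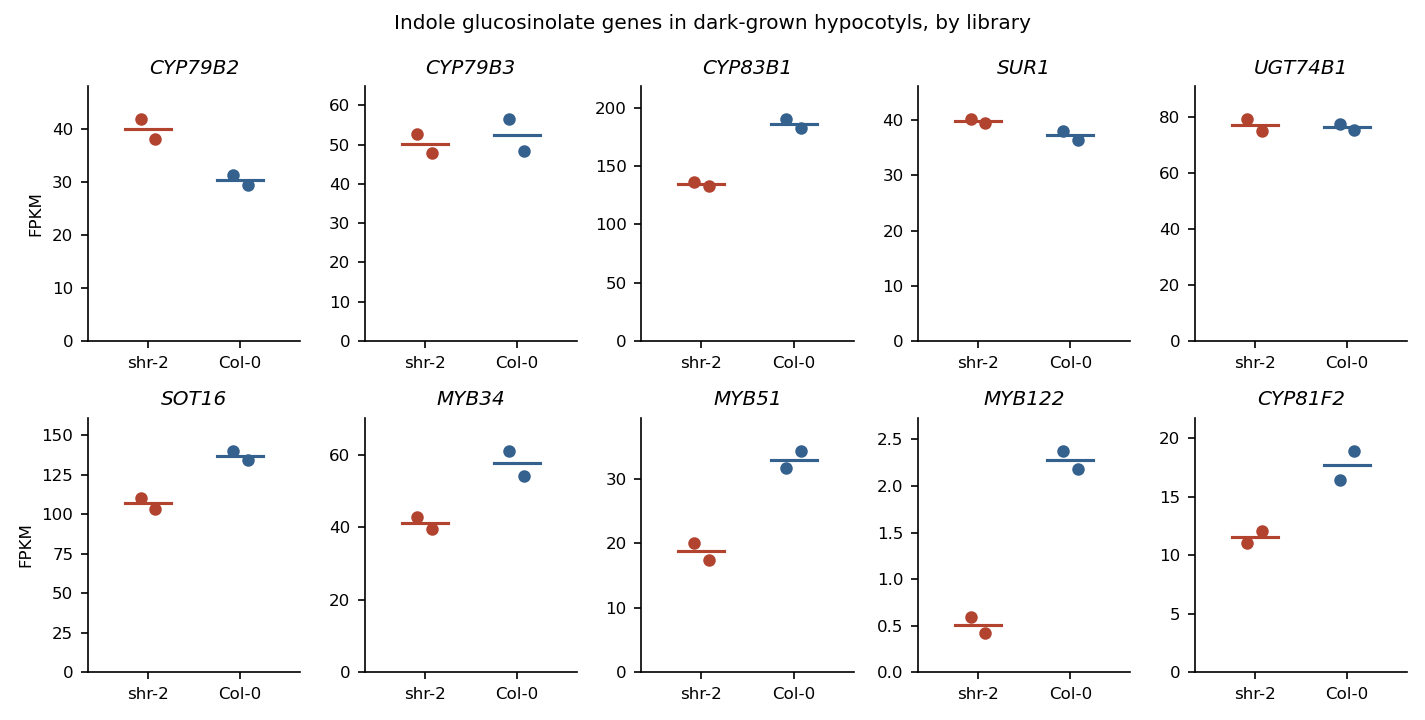
FPKM of each member in each library, with shr-2 on the left and Col-0 on the right of each panel; points are libraries, lines are means of 2 libraries, and every axis starts at 0. CYP79B2 and SUR1, of which SUR1 was not called, are higher in both shr-2 libraries. The MYB genes, CYP83B1, SOT16 and CYP81F2 are lower in both, and the genotypes overlap for CYP79B3 and UGT74B1.

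The 3 MYB activators were all lower in shr-2. MYB122, the least expressed of them, read 0.596 and 0.420 FPKM in shr-2, against 2.38 and 2.19 FPKM in Col-0. Its mutant mean was thus 22.3% of the Col-0 mean, and at an estimated 0.042 FPKM per fragment and kilobase these values stand for about 22 and 16 fragments in shr-2 and 88 and 81 in Col-0. On the log2 scale of FPKM + 1 it fell by 1.12 (SE 0.14, limma, adjusted p = 0.00596). The log2 fold change was -1.98 with a pseudocount of 0.1, since the added 1 outweighs the mutant level.

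MYB51 read 20.1 and 17.4 FPKM in shr-2 and 31.7 and 34.4 FPKM in Col-0, a log2 fold change of -0.79 (SE 0.11, limma, adjusted p = 0.00792). MYB34, the most abundant of the 3, read 42.9 and 39.4 FPKM in shr-2 and 61.0 and 54.2 FPKM in Col-0, a log2 fold change of -0.47 (SE 0.11, limma, adjusted p = 0.0292). For each activator both shr-2 libraries lay below both Col-0 libraries. The summed level of the 3 was 63.6 and 57.2 FPKM in shr-2, against 95.1 and 90.8 FPKM in Col-0. MYB34 made up 67.4% and 68.8% of this sum in shr-2 and 64.2% and 59.7% in Col-0, while MYB122 made up 0.936% and 0.734% in shr-2 and 2.50% and 2.41% in Col-0. The order MYB34, MYB51, MYB122 held in all 4 libraries, with no overlap between neighbours within a genotype.

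At the entry to the pathway CYP79B2 rose, while CYP79B3 did not pass the test. CYP79B2 read 41.9 and 38.2 FPKM in shr-2 and 31.4 and 29.5 FPKM in Col-0, so that both mutant libraries lay above both wild-type ones, and its log2 fold change was 0.38 (SE 0.10, limma, adjusted p = 0.0426). CYP79B3 read 52.7 and 47.9 FPKM in shr-2 and 56.5 and 48.5 FPKM in Col-0, which overlap (log2 fold change -0.06, 95% interval -0.36 to 0.24, limma, adjusted p = 0.747). Within a library, the ratio of CYP79B2 to CYP79B3 was 0.795 and 0.798 in shr-2 and 0.557 and 0.608 in Col-0, so CYP79B3 was the more abundant of the pair in all 4 libraries. The summed level of the pair overlapped between genotypes, at 94.6 and 86.0 FPKM in shr-2 and 87.9 and 77.9 FPKM in Col-0. The ratios and sums within a library are given as values and were not tested. The call of CYP79B2 was lost with quantile normalization, with libraries scaled to the same median ratio and without a mean-variance trend. CYP79B2 was not called in the authors' deposited table (q = 0.0684).

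CYP83B1, the most abundant member, fell to 136 and 133 FPKM in shr-2, against 190.0 and 183 FPKM in Col-0 (log2 fold change -0.47, SE 0.09, limma, adjusted p = 0.0185). It exceeded 97.4% and 97.0% of the other listed genes in shr-2 replicates 1 and 2, and 98.3% and 98.2% in the Col-0 ones. The ratio of the summed CYP79B pair, which forms indole-3-acetaldoxime, to CYP83B1, which uses it, was 0.697 and 0.649 in shr-2 and 0.463 and 0.427 in Col-0. This is a ratio of transcripts and says nothing of enzyme activity.

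**Figure D2:**
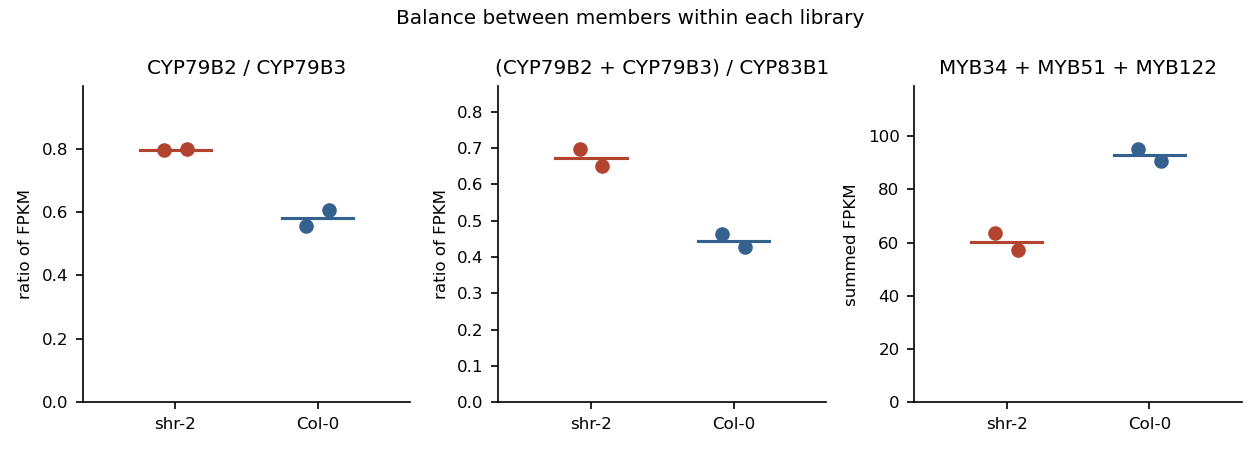
Within-library ratios of FPKM (left and middle) and summed FPKM of the 3 MYB activators (right), with shr-2 left of Col-0 in each panel; points are libraries and lines are means of 2. The genotypes separate in each panel, with CYP79B2 over CYP79B3 at 0.795 and 0.798 in shr-2 and 0.557 and 0.608 in Col-0.

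SUR1 and UGT74B1, which also serve methionine-derived glucosinolates, were not called. SUR1 read 40.2 and 39.5 FPKM in shr-2 and 38.0 and 36.4 FPKM in Col-0 (log2 fold change 0.09, 95% interval -0.13 to 0.31, limma, adjusted p = 0.463). UGT74B1 read 79.1 and 75.0 FPKM in shr-2 and 77.3 and 75.4 FPKM in Col-0 (log2 fold change 0.01, 95% interval -0.21 to 0.24, limma, adjusted p = 0.928). The intervals leave room for a change of either sign that is smaller than the one measured for CYP83B1 on the log2 scale. SOT16 fell to 111 and 103 FPKM in shr-2, against 140.2 and 134 FPKM in Col-0 (log2 fold change -0.36, SE 0.09, limma, adjusted p = 0.0452). SOT16 was not called without a mean-variance trend or in the authors' deposited table (q = 0.104).

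CYP81F2 opens the route to 4-methoxylated indole glucosinolates, which are known for their part in defence against fungi and aphids. It read 11.0 and 12.1 FPKM in shr-2 and 16.4 and 18.9 FPKM in Col-0, a log2 fold change of -0.57 (SE 0.11, limma, adjusted p = 0.0213). Both shr-2 libraries lay below both Col-0 libraries. The authors' deposited table called 5 of the members, against 24.8% of all genes with a completed test, and these 5 were MYB34, MYB51, MYB122, CYP83B1 and CYP81F2. All 5 were also called here, and CYP79B2 and SOT16 were called here only.

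**Figure D3:**
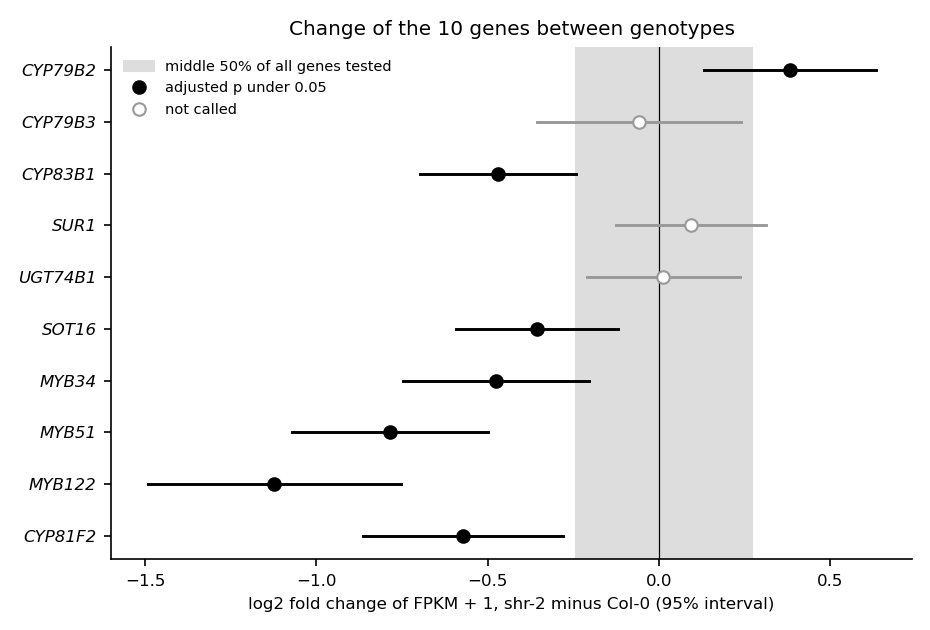
Log2 fold change of FPKM + 1, shr-2 minus Col-0, of the 10 members with its 95% interval; filled points passed the test, open points did not, and the grey band holds the middle 50% of all genes tested. The 6 members called lower run from -1.12 for MYB122 to -0.36 for SOT16, and CYP79B2 lies to the right of 0.

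Most calls needed all 4 libraries. MYB122 passed whichever library was left out (limma, adjusted p 0.0103 to 0.0401). MYB51 passed without either shr-2 library but not without Col-0 replicate 1 (0.0544) or Col-0 replicate 2 (0.0667). The calls of CYP79B2, CYP83B1, SOT16, MYB34 and CYP81F2 were lost whichever library was left out, with adjusted p of 0.0607 to 0.199. The number of members called lower was then 2 without shr-2 replicate 1 or replicate 2, and 1 without Col-0 replicate 1 or replicate 2.

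Around the 10 members, 73 genes were taken in 8 lists on tryptophan supply, other pathway steps and competing routes. Of the 65 genes tested, 21 were higher, 15 lower and 29 not called. The shares over all genes tested, to be set beside the counts of each list, were 13.9% higher and 13.7% lower. Tryptophan supply was mixed, with 4 of 11 genes higher and 2 lower (median log2 fold change 0.01). TSB1, the main beta subunit of tryptophan synthase, rose to 112 and 109 FPKM in shr-2, against 57.9 and 57.7 FPKM in Col-0 (log2 fold change 0.92, limma, adjusted p = 0.00252). Its partner subunit TSA1 rose to 70.1 and 77.6 FPKM, against 48.0 and 55.9 FPKM in Col-0. PAT1, of an earlier step, fell to 11.3 and 9.92 FPKM in shr-2, against 14.5 and 17.1 FPKM in Col-0, a call also lost with no filter on low values (adjusted p = 0.0537). PAI2, an isomerase of the same route, fell to 0.664 and 0.574 FPKM, against 3.01 and 3.70 FPKM in Col-0, and passed the filter only through its Col-0 level. It is 99.0% identical to PAI1 over part of its length, so the split of reads is uncertain. PAI1 was called higher, at 13.4 and 13.9 FPKM in shr-2 and 8.51 and 10.6 FPKM in Col-0 (limma, adjusted p = 0.0468). PAI2 was not called in the authors' deposited table (q = 0.283). With no filter on low values 2 genes of this list were called higher and 1 lower. Whichever library was left out, 1 gene of the list stayed called higher and 1 lower.

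Of 7 genes for other core steps and cofactors, 1 rose and 6 were not called, beside 27.6% called over all genes tested. That gene, the glutathione transferase GSTF9, read 599.6 and 618 FPKM in shr-2 and 398 and 400.0 FPKM in Col-0 (log2 fold change 0.61, limma, adjusted p = 0.0115), and passed with only shr-2 replicate 1 left out among the single libraries. APK2, the neighbour of CYP79B2, read 30.9 and 28.7 FPKM in shr-2 and 29.6 and 25.7 FPKM in Col-0, which overlap.

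All 8 other genes of indole ring modification changed, 3 upward and 5 downward, with a median log2 fold change of -0.73. The largest levels were those of the 1-methoxy branch, and both its genes fell. CYP81F4, which hydroxylates the indole nitrogen, read 40.1 and 48.6 FPKM in shr-2 and 126 and 117 FPKM in Col-0 (log2 fold change -1.44, SE 0.12, limma, adjusted p = 0.0022). IGMT5, the methyltransferase that follows it, read 60.5 and 52.5 FPKM in shr-2 and 148 and 144 FPKM in Col-0 (log2 fold change -1.35, SE 0.11, limma, adjusted p = 0.00176). Both passed whichever library was left out. On the 4-methoxy branch, IGMT1 fell to 18.1 and 20.8 FPKM in shr-2, against 47.0 and 53.4 FPKM in Col-0, whereas IGMT3 rose to 15.5 and 15.7 FPKM, against 5.96 and 6.60 FPKM in Col-0. IGMT1 to IGMT4 are 90.8% to 96.3% identical where they pass the limit used here, so their reads may be split wrongly among them. CYP81F4 and IGMT5 each overlap a gene on the opposite strand, whose reads can be told apart only if counting used the strand. The same holds for PAT1, PAI2, SDI2, UGT74C1, GTR2, PYK10 and CYP71A13, named in other lists. SOT18 overlaps a gene model on its own strand, which strand use cannot separate. The count of 5 genes called lower was 3 without Col-0 replicate 1, and that of 3 called higher was 1 without shr-2 replicate 2 or either Col-0 library and 2 without shr-2 replicate 1.

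**Figure D4:**
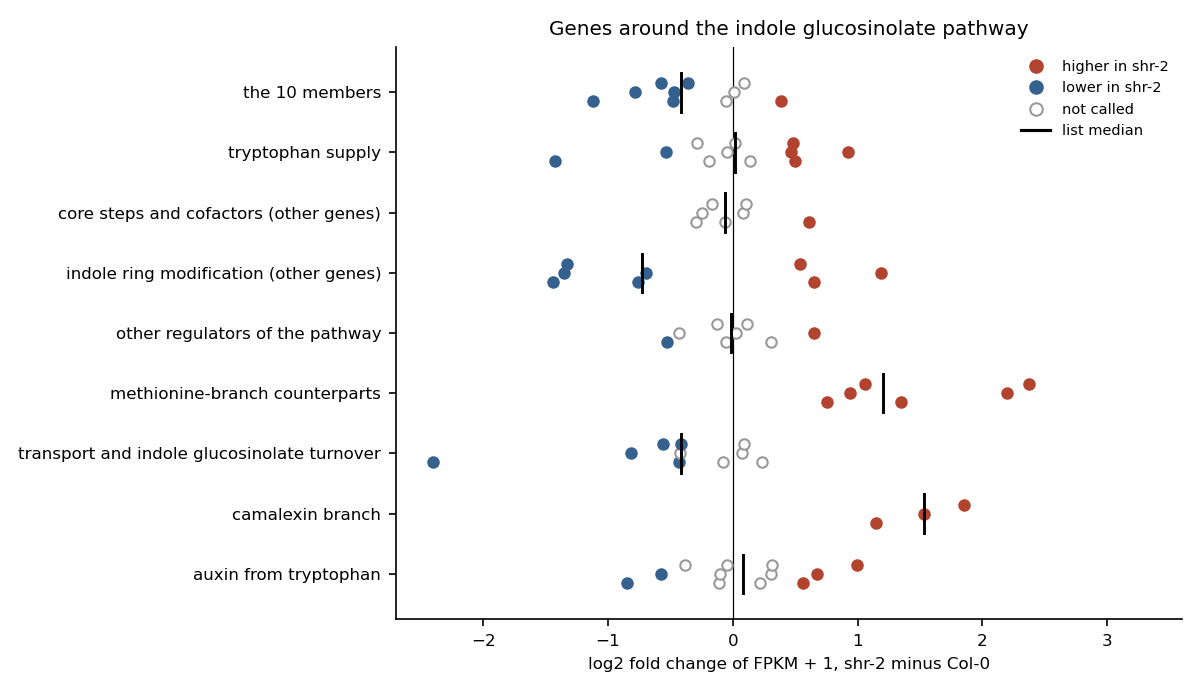
Log2 fold change of FPKM + 1, shr-2 minus Col-0, of every tested gene in the members and in 8 lists around the pathway; filled points were called higher (red) or lower (blue) in shr-2, open points were not called, and black bars are list medians. The members have a median of -0.41, other ring modification genes of -0.73, methionine-branch counterparts of 1.20 and camalexin genes of 1.54.

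Among 8 tested regulators that act beside the MYB factors, 1 fell, 1 rose and 6 were not called, a share near the 27.6% called over all genes tested. MYC2, the jasmonate-pathway factor that partners the MYB activators, read 33.0 and 39.7 FPKM in shr-2 and 53.3 and 52.1 FPKM in Col-0 (log2 fold change -0.53, limma, adjusted p = 0.0292). AT1G32630 on the opposite strand covers 98.5% of its transcript. SDI2, a repressor-type protein induced by sulfur deficiency, read 29.5 and 25.2 FPKM in shr-2 and 15.7 and 18.5 FPKM in Col-0. Both calls were lost in 3 of the 4 cases with a library left out, with shr-2 replicate 2 the exception.

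The counterparts of the members in the methionine branch were higher in the mutant. All 6 tested genes of 9 rose, with a median log2 fold change of 1.20, and the other 3 averaged under 1 FPKM. CYP83A1, the relative of CYP83B1 that handles methionine-derived oximes, read 10.6 and 10.6 FPKM in shr-2 and 1.05 and 1.44 FPKM in Col-0 (log2 fold change 2.37, SE 0.13, limma, adjusted p = 0.000786). GSTU20 read 97.5 and 81.4 FPKM in shr-2 and 20.1 and 17.2 FPKM in Col-0. UGT74C1, which parallels UGT74B1, read 24.8 and 25.1 FPKM in shr-2 and 9.81 and 8.67 FPKM in Col-0. SOT18, beside SOT16 on chromosome 1 and 81.0% identical to it over 977 aligned bases, read 34.7 and 34.9 FPKM in shr-2 and 18.5 and 16.8 FPKM in Col-0. All 4 passed whichever library was left out.

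Of 10 genes for transport and turnover of indole glucosinolates, 5 fell, 0 rose and 5 were not called (median log2 fold change -0.42). Over all genes tested, 13.7% were called lower. TGG2, a classical myrosinase, read 0.115 and 0.0621 FPKM in shr-2 and 4.49 and 5.01 FPKM in Col-0 (log2 fold change -2.40, SE 0.14, limma, adjusted p = 0.000807, and -4.70 with a pseudocount of 0.1). It passed the filter on low values only through its Col-0 level. TGG1, the other TGG gene of the list, was far more abundant and was not called (limma, adjusted p = 0.165). TGG1 read 384 and 399.8 FPKM in shr-2 and 318 and 349.5 FPKM in Col-0. GTR2, a glucosinolate importer, read 52.4 and 50.2 FPKM in shr-2 and 76.2 and 75.7 FPKM in Col-0. PCS1, a phytochelatin synthase that also acts in indole glucosinolate turnover, read 24.8 and 24.7 FPKM in shr-2 and 32.9 and 34.6 FPKM in Col-0. PYK10, the beta-glucosidase of endoplasmic reticulum bodies, read 3598 and 3204 FPKM in shr-2 and 6078 and 5859 FPKM in Col-0 (log2 fold change -0.81, limma, adjusted p = 0.0165). Its call was lost with no filter on low values (0.124), which left 3 genes of the list called lower, and quantile normalization gave -1.40. The count of 5 was 3 without shr-2 replicate 1 and 1 without any other single library.

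Genes that draw on indole-3-acetaldoxime for camalexin rose. All 3 tested of 4 were higher in shr-2, with a median log2 fold change of 1.54. CYP71B15, also called PAD3, which completes camalexin, read 8.14 and 8.58 FPKM in shr-2 and 1.57 and 1.60 FPKM in Col-0 (log2 fold change 1.86, SE 0.11, limma, adjusted p = 0.000901). CYP71A12, which converts the oxime to a nitrile, read 14.4 and 17.7 FPKM in shr-2 and 3.75 and 6.18 FPKM in Col-0. It is 90.4% identical to CYP71A13, which was not tested, with 1.07 and 1.23 FPKM in shr-2 and both Col-0 values listed at 0, and the split of reads between them is uncertain. The glutathione transferase GSTF6 read 110 and 142 FPKM in shr-2 and 50.5 and 61.4 FPKM in Col-0, and its call was lost without Col-0 replicate 1.

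Of 12 tested genes for auxin synthesis from tryptophan, 3 rose, 2 fell and 7 were not called (median log2 fold change 0.08). The share called over all genes tested was 27.6%. Of the 3 auxin genes that rose, 1 passed the filter only through shr-2. TAR2, a tryptophan aminotransferase, read 6.10 and 6.41 FPKM in shr-2 and 2.91 and 2.40 FPKM in Col-0 (log2 fold change 0.99, limma, adjusted p = 0.00572). NIT3, a nitrilase, read 24.3 and 23.0 FPKM in shr-2 and 43.0 and 43.8 FPKM in Col-0 (log2 fold change -0.85, limma, adjusted p = 0.00333). The amidohydrolase AMI1 read 35.2 and 43.6 FPKM in shr-2 and 22.9 and 25.4 FPKM in Col-0, and the flavin monooxygenase gene YUC2 read 2.00 and 1.77 FPKM in shr-2 and 3.35 and 3.25 FPKM in Col-0. TAR2 and NIT3 passed whichever library was left out, and AMI1 and YUC2 passed with only shr-2 replicate 1 left out. The counts were then 2 higher and 2 lower, and 1 higher and 1 lower without any other single library. The summed levels of endodermis and green-tissue markers differ between the same libraries, and their part in the values of the members and of these lists was not tested.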

How the data were processed

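The submitters' processing notes name TopHat2 2.0.13, CASAVA 1.8.2 and Cuffdiff 2.2.0 and the TAIR10 build, and Araport11 gene models are used per the file headers. An FPKM value per gene and library was deposited by the authors. The authors' deposited comparison table gives mean FPKM, a log2 fold change, an unsigned fold, a test score and p-values with q-values, and only its q-values and calls are quoted. Any scaling between libraries and strand use are not given in the sources used here. FPKM is relative to each library's own total. Read counts were not used, so depth is an estimate: 1 fragment per kilobase was worth 0.042 FPKM in all 4 libraries, the middle of the fullest histogram bin of 0.004 FPKM among low values, which does not show equal depth. With 2 libraries a group, p-values measure only the spread between these libraries.

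FPKM values were taken as log2(FPKM + 1) for the 19920 genes that averaged 1 FPKM or more, and fitted with limma 3.58.1 in R 4.3.3 (mean-variance trend, 2-sided), a procedure tested on simulated data. Fold changes on this scale understate low genes. All 32538 genes matched RefSeq's TAIR10.1 annotation by identifier, and the loci of all 10 members equal it. Over all genes 71.7% of loci equal it, and those of some named list genes, such as CYP81F4 and IGMT5, do not. Copies were sought with blastn 2.17.0. The alternatives were other pseudocounts, filters and scalings, no trend, a replicate block and leaving out each library. Members, lists and tests were chosen with earlier results of these data known. Named were all members, 3 genes that check the labels and, per list, up to 4 called genes with the smallest adjusted p. APK2, as a neighbour of CYP79B2, CYP71A13 and PAI1, as copies, and TGG1, beside TGG2, were named after their values were seen.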

Additional observations from a re-analysis of the deposited data

How the results depend on the processing

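The only members to change sign did so with a library left out. The log2 fold change of CYP79B3 then ran from -0.1664 to 0.0508, above 0 without shr-2 replicate 2 (0.0103) or Col-0 replicate 1. That of UGT74B1 ran from -0.0246 to 0.0505, below 0 without shr-2 replicate 1 or Col-0 replicate 2 (-0.0044). These 2 genes were called under no setting. The single member called higher, CYP79B2, was 0 calls with quantile normalization, with libraries scaled to the same median log2 ratio, with no mean-variance trend, and with any library left out, and the cause was not tested. The count of members called lower was 1 to 2 with a library left out. MYB122 could not be tested at a minimum mean of 5 FPKM. Leaving out a library gave 964 to 2053 genes called higher and 1094 to 1799 lower over all genes, and 10 to 15 higher and 6 to 11 lower among the pathway genes. Libraries that share a replicate number deviated together (r = 0.305 across genes), but the labels do not tie the numbers to a shared batch. With replicate number as a block, 4486 genes were called higher and 4243 lower, and the members called were the same 7. Among the lists, a minimum mean of 5 FPKM gave 1 gene called lower in tryptophan supply, 2 lower among the other regulators, and 1 higher and 1 lower on the auxin routes, with fewer genes tested. The block gave 2 genes lower among the core steps and cofactors, 2 lower among the other regulators and 1 higher in transport and turnover. With 1 library left in a group, that library is assumed to vary like the other group.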
